A study of Saccharomyces cerevisiae with 47 samples.

Results

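Abf1 sites lying between tandem genes, that is, between neighbouring protein-coding genes on the same strand, made up 348 of the 1365 distinct Abf1 sites in the study's deposited list (25.5%, exact 95% binomial interval 23.2 to 27.9). A site was a member when its centre was outside every annotated gene of the R64 yeast genome build and the flanking protein-coding genes shared a strand. The study assembled Saccharomyces cerevisiae chromatin in vitro from plasmid library DNA and recombinant yeast histone octamers, so the measurements were not made in living cells. By the submitters' account, the DNA put into this chromatin was that of chromosomes V to IX. Of the 348 members, 72 lay there and 276 lay on other chromosomes. Whether those 276 sites were in the assembled chromatin cannot be told from the list. Abf1 carrying a Strep-tag II at its C-terminus was added at 50 nM, alone or with the chromatin remodeler INO80, ISW2 or Chd1 at 24 nM or RSC at 12 nM. The chromatin was crosslinked with 0.05% formaldehyde, digested with MNase and pulled down on Strep-Tactin, with 2 replicates for each of the 5 reactions and 2 control pulldowns without factor or remodeler. For Reb1, the labels give the same 5 reactions at 50 nM factor, with 2 replicates each and 2 control pulldowns. Fragment sizes were 38 to 90 bp for pulldowns and 120 to 180 bp for input libraries, and 1 control input was labelled for both factors. In 6 of the 12 Abf1 pulldowns the description names a coverage file of Reb1, and which label is right cannot be told from the list. The list carries no sample, so remodeler effects, depth and the spread between replicates cannot be read from it, and the intervals given here reflect only counting error across sites.

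Abf1 is a general regulatory factor of budding yeast. It binds a long motif whose conserved ends are separated by a variable spacer, and in cells it is known for keeping promoters free of nucleosomes and for binding some replication origins. Between tandem genes the intergenic DNA holds the 3′ end of the first gene's transcript and the promoter of the second, so every such site has a defined downstream gene and a defined upstream gene.

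Each Abf1 site spanned 15 bp from start to end as deposited, and positions are uncertain by 1 bp because the list does not say whether starts count from 0 or 1. All distances, also those between sites, are measured from the centres of the sites. The 348 sites occupied 330 intergenic regions, of which 313 held 1 site, 16 held 2 and 1 held 3. The R64 gene table gave 2828 tandem regions, so 11.7% of genes downstream of tandem DNA had an Abf1 site there. Reb1, the other factor of the study, had sites in 11.2% of the same regions. Regions with an Abf1 site had a median length of 446.5 bp (interquartile range 302.5 to 695), and those without had a median of 396 bp (277 to 619.5). The genes were on the plus strand at 184 members and on the minus strand at 164.

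Abf1 sites between tandem genes were concentrated 100 to 250 bp before the start codon of the downstream gene and were sparse in the last 100 bp. Of the 348 sites, 92 lay over 150 and up to 200 bp from the start codon, a density of 696 per Mb of tandem intergenic DNA at that distance (95% Poisson interval 561 to 853). The density over all tandem intergenic DNA was 216 per Mb (194 to 240). From 100 to 150 bp it was 445 per Mb (61 sites, 341 to 572), and from 200 to 250 bp it was 402 per Mb (49 sites, 298 to 532). Within 50 bp of the start codon there were 7 sites (50.0 per Mb, 20.1 to 103), and from 50 to 100 bp another 7 (50.4 per Mb, 20.3 to 104). Beyond 1000 bp there were 13 sites (48.0 per Mb, 25.6 to 82.1). The median distance to the start codon was 211 bp (interquartile range 157.5 to 351.75), and 300 of 348 sites (86.2%, 82.1 to 89.7) were within 500 bp.

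**Figure D1:**
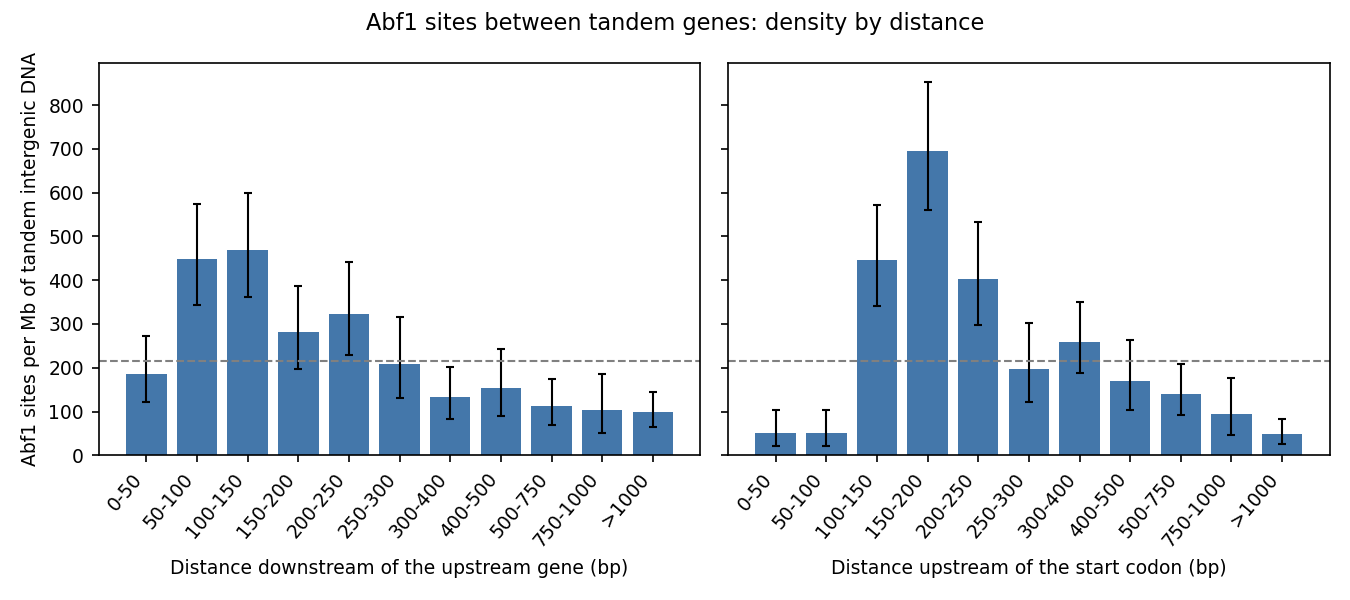
Density of Abf1 sites between tandem genes, in sites per Mb of tandem intergenic DNA at each distance, by distance from the end of the upstream gene (left) and from the start codon of the downstream gene (right). Error bars are 95% Poisson intervals and the dashed line is the density over all tandem intergenic DNA, 216 per Mb. The highest bar, at 150 to 200 bp before the start codon, reaches 696 per Mb.

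The sites came closer to the upstream gene than to the start codon. The median distance to the end of the upstream gene was 184.5 bp (interquartile range 98.25 to 345). Within 50 bp of that end lay 26 sites (186 per Mb, 121 to 272), against the 7 within 50 bp of a start codon. The density was highest from 50 to 150 bp past the upstream gene, at 447 per Mb (343 to 573) from 50 to 100 bp and 470 per Mb (362 to 600) from 100 to 150 bp. Distances to the ends are to coding sequence, so part of this DNA is transcribed in cells. Among the 26 sites next to the upstream gene, 20 (76.9%) scored at or above the median of the whole list, as did 221 of all 348 members (63.5%). They included the site 21.5 bp past PRM2 and 355.5 bp before NOT3, a CCR4-NOT complex gene (score 15.0), the site 25.5 bp past TIM54 and 171.5 bp before PEP8, a retromer gene (score 14.9), and the site 33.5 bp past CDC23 and 188.5 bp before PRP8, the gene of a core spliceosome protein (score 14.2). These 3 were chosen after their values were seen. Their regions were short, with a median of 232 bp over the 26, and their median distance to the start codon was 199 bp.

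The distances to both genes are linked through the length of the region. In the 116 members with the shortest regions (91 to 337 bp), the median distance was 159 bp to the start codon and 94.5 bp to the upstream gene, and 23 (19.8%) were closer to the start codon. In the 116 with the longest regions (591 to 7217 bp) the medians were 399.5 bp and 505.5 bp, and 64 (55.2%) were closer to the start codon. Over all members, 143 of 348 (41.1%, 35.9 to 46.5) were closer to the start codon than to the upstream gene. Spearman's rank correlation of region length with distance across the 348 members was 0.63 for the start codon and 0.76 for the upstream gene. These are descriptions, since each distance is part of the length.

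**Figure D2:**
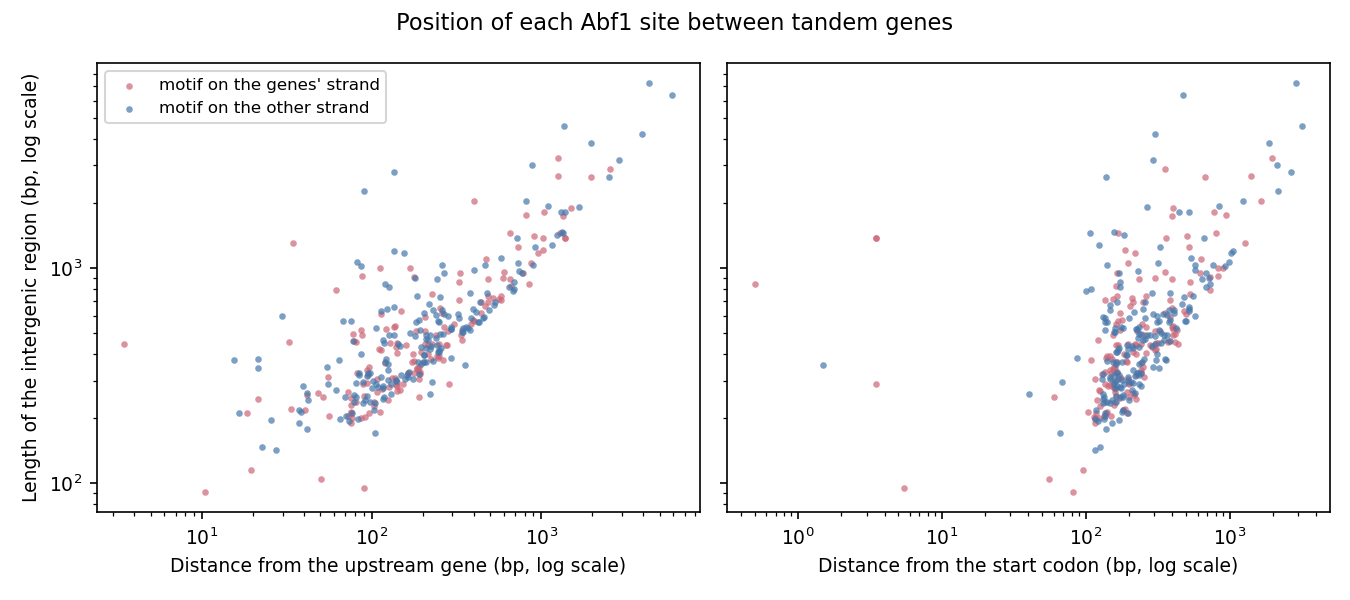
Position of each of the 348 Abf1 sites between tandem genes. The horizontal axes give the distance in bp from the upstream gene (left) or from the start codon (right), and the vertical axis gives the length of the intergenic region in bp, all on log scales, with colour for the motif strand. On the right most sites lie between 100 and 400 bp over a wide range of region lengths. The distance grows with the region on both sides (Spearman's rank correlation 0.76 on the left and 0.63 on the right).

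Reb1 sites chosen by the same rule, also 348 in number, had nearly the same share within 200 bp of the start codon, with fewer sites next to the upstream gene. Within 50 bp of the upstream gene lay 11 Reb1 sites (78.5 per Mb, 39.2 to 140.5) and 26 Abf1 sites (186 per Mb, 121 to 272), a difference that was not tested. Within 200 bp of the start codon were 167 of 348 Abf1 sites (48.0%) and 166 of 348 Reb1 sites (47.7%), a difference of 0.287 percentage points (SE 3.79, 95% interval -7.13 to 7.71). The adjusted p was 1.0 by the two-sided Fisher's exact test, corrected by Benjamini-Hochberg across the 10 tests made here. The Abf1 sites were closer to the start codon than to the upstream gene in 41.1% of cases and the Reb1 sites in 48.9%. That difference of -7.76 points (SE 3.76, interval -15.1 to -0.389) did not pass after adjustment (Fisher's exact test, p = 0.0475, adjusted p = 0.0792). It passed when only sites wholly outside genes were used (-8.67 points, exact adjusted p = 0.0436). Among sites listed in 2 or more rows the difference was -3.76 points, and on chromosomes V to IX it was -11.5 points. Neither of those passed (Fisher's exact test, adjusted p = 0.518 and 0.324).

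The Abf1 motif is asymmetric, and both flanking genes share a strand, so each site points with or against them. The motif was on the strand of the genes at 158 of 348 sites (45.4%, 40.1 to 50.8) and on the other strand at 190. The interval includes an even split. The share was 47.9% (80 of 167) within 200 bp of the start codon, 44.4% (59 of 133) from 200 to 500 bp and 39.6% (19 of 48, 25.8 to 54.7) beyond, with overlapping intervals. Reb1 sites were on the strand of the genes in 157 of 348 cases (45.1%), which differed from Abf1 by 0.287 points (SE 3.77, interval -7.11 to 7.68; Fisher's exact test, adjusted p = 1.0). Abf1 sites on the strand of the genes had a median score of 12.6 and those on the other strand also 12.6.

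Scores, which the authors gave to each site without defining them, ran from 10.6 to 15.6 among the members, with a median of 12.6 (interquartile range 11.6 to 13.6). At or above the list median of 11.98 were 221 of 348 tandem sites (63.5%, 58.2 to 68.6), 238 of 340 Abf1 sites between divergent genes (70.0%, 64.8 to 74.8) and 219 of 656 inside protein-coding genes (33.4%, 29.8 to 37.1). The tandem share was above that inside genes by 30.1 points (SE 3.17; Fisher's exact test, adjusted p = 7.78e-19). Against divergent regions the difference was -6.49 points (SE 3.58, interval -13.5 to 0.528) and did not pass (exact adjusted p = 0.108). It passed among sites listed in at least 2 rows (-8.96 points, exact adjusted p = 0.0459). With the upper quartile as the score limit the difference was -2.03 points, and on chromosomes V to IX it was -8.93 points. Neither of those passed (Fisher's exact test, adjusted p = 0.795 and 0.371). Among the members, low and high scorers lay at similar distances. The 87 lowest-scoring members had a median distance of 198.5 bp to the start codon and the 87 highest-scoring members one of 194.5 bp, and Spearman's rank correlation of score with distance over the 348 sites was 0.026.

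**Figure D3:**
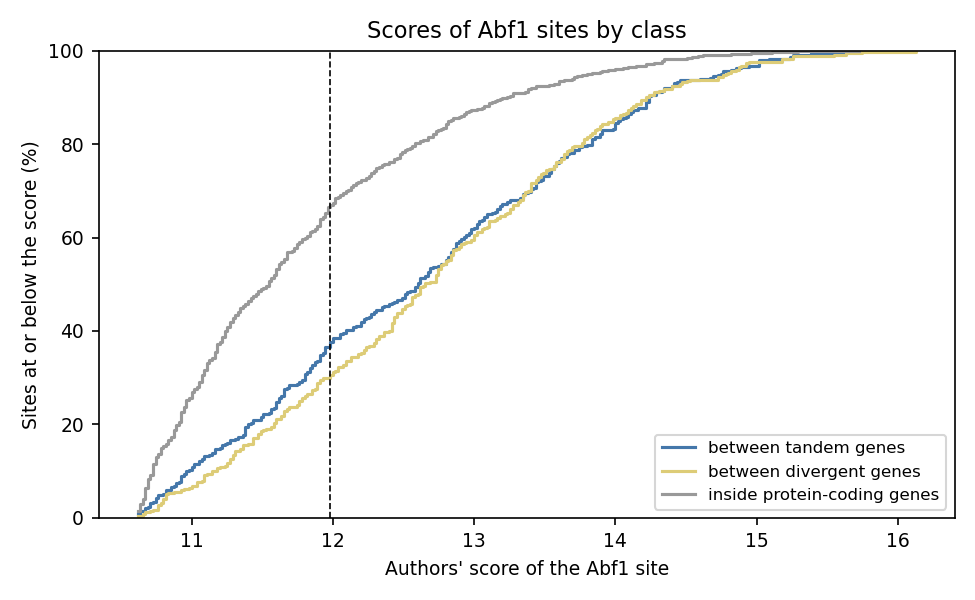
Cumulative share of Abf1 sites, in percent, at or below each of the authors' scores, for sites between tandem genes (348), between divergent genes (340) and inside protein-coding genes (656). The dashed line marks the median of the whole list, 11.98, which 63.5% of tandem sites reached or passed against 33.4% of sites inside genes.

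The highest-scoring member lay on chromosome XVI (251907 to 251922, score 15.6), 246.5 bp before PET20, a gene of mitochondrial function. Next came the sites 168.5 bp before DSN1, a kinetochore gene (chromosome IX, 375255 to 375270, score 15.5), and 223.5 bp before MNN10, a gene of a Golgi mannosyltransferase complex (chromosome IV, 952569 to 952584, score 15.4). The sites before RPN1, a proteasome base subunit gene (159.5 bp, score 15.2), RNP1, an RNA-binding protein gene (193.5 bp, score 15.1), QCR9, a cytochrome bc1 subunit gene (214.5 bp, score 15.0), NOT3 (355.5 bp, score 15.0) and URB1, a gene of 60S ribosome assembly (132.5 bp, score 15.0), also ranked high. VPH1, a vacuolar ATPase subunit gene (304.5 bp, score 15.0), had the same score as QCR9, NOT3 and URB1, so 11 members share the top 10 places. The site before TMA20, a ribosome-associated protein gene, was 835.5 bp from its start codon and 87.5 bp past SEC3 (score 15.3). The site before CDC16, a gene of the anaphase-promoting complex, lay in a 95 bp region, 5.5 bp from the start codon and 90.5 bp from the nucleolar gene MAK11 (chromosome XI, 397246 to 397261, score 15.3). Of these 11 sites, 5 were listed in 1 row, 5 in 2 rows and 1 in 4 rows, and of all members 25.6% were listed in 1 row and 21.6% in 2.

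The sites nearest to a start codon were those of BDF1, a bromodomain protein gene (0.5 bp), TRM2, a tRNA methyltransferase gene (1.5 bp), YAT1, a carnitine acetyltransferase gene, MGR1, a gene of the mitochondrial i-AAA protease, and VAC7, a gene of vacuolar lipid phosphorylation. The last 3 tied at 3.5 bp. Such sites reach into the coding sequence, and 7 members overlapped a gene in part. TRM2 scored 13.6 and VAC7 13.1, and the other 3 scored between 10.7 and 11.4. Farthest from a start codon were the sites before IMA3, an isomaltase gene (3204.5 bp), FLO1, a flocculin gene (2883.5 bp), RPC17, an RNA polymerase III subunit gene (2655.5 bp), and ORC2, an origin recognition complex gene (2182.5 bp). The ORC2 and RPC17 sites lay 90.5 and 136.5 bp past TRM7 and NOP9. A tRNA, snoRNA or other gene that does not code for protein lay in the region of 25 members. The RPC17 and IMA3 regions each held 2 such genes.

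The list repeats sites, up to 5 times, and no source used here says what a repeat stands for. Abf1 sites between tandem genes were repeated less often than those between divergent genes. They were listed in 2 or more rows in 259 of 348 cases (74.4%, 69.5 to 78.9), against 284 of 340 (83.5%, 79.2 to 87.3), a difference of -9.10 points (SE 3.09; Fisher's exact test, adjusted p = 0.00746). The largest number of rows, 5, was reached by 18 tandem sites (5.17%, 3.09 to 8.05) and by 50 divergent sites (14.7%, 11.1 to 18.9), a limit chosen after seeing the data (-9.53 points, exact adjusted p = 8.11e-05). Among sites at or above the list median score the tandem share with 2 or more rows was 72.9% and the divergent share 84.9%, and below it the shares were 77.2% and 80.4%. Reb1 sites went the same way, which was not tested. At or above the Reb1 median score the tandem share was 87.4% and the divergent share 92.2%, and below it 75.3% and 81.2%. Abf1 sites inside protein-coding genes were repeated in 465 of 656 cases (70.9%), which differed from the Abf1 tandem share by 3.54 points (SE 2.93, interval -2.21 to 9.29; exact adjusted p = 0.297). With 5 rows as the limit the tandem share was instead below that inside genes, by -6.26 points (exact adjusted p = 0.00173). On chromosomes V to IX alone, the DNA that the series text names as reconstituted, the difference from divergent regions was -3.34 points and did not pass (72 members, exact adjusted p = 0.768). With every row counted as a site it was -4.52 points, and with 4 or more rows as the limit, also chosen after seeing the data, it was -14.1 points (exact adjusted p = 0.00021).

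**Figure D4:**
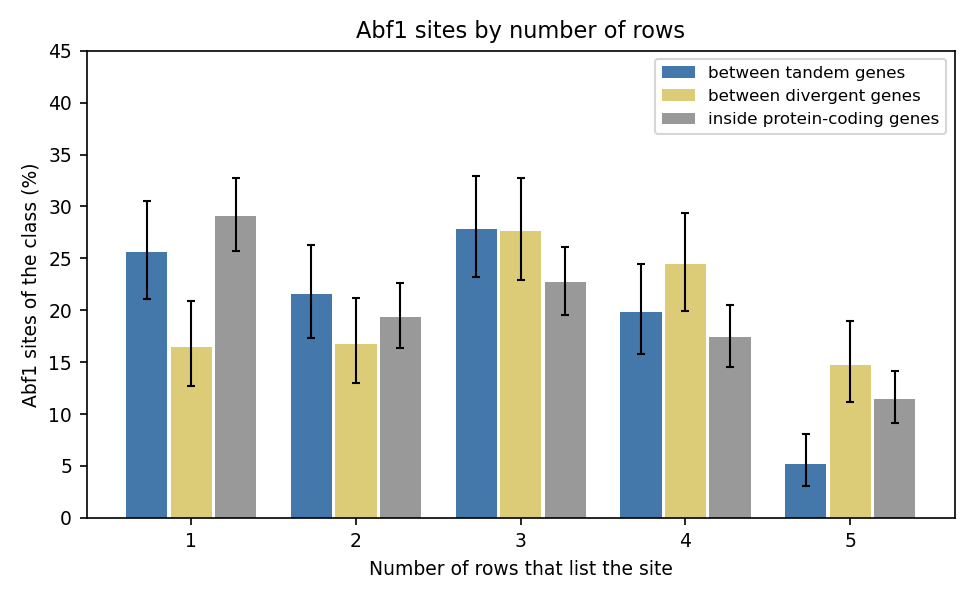
Share of Abf1 sites, in percent of each class, by the number of rows that list the site, for sites between tandem genes, between divergent genes and inside protein-coding genes. Error bars are exact 95% binomial intervals. At 5 rows the tandem share is 5.17% and the divergent share 14.7%, and at 1 row they are 25.6% and 16.5%.

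Abf1 sites between tandem genes had another Abf1 site close by less often than divergent sites or sites inside protein-coding genes. Another Abf1 site lay within 100 bp of 29 of 348 tandem sites (8.33%, 5.65 to 11.8), of 69 of 340 divergent sites (20.3%, 16.15 to 24.97) and of 131 of 656 sites inside genes (20.0%, 17.0 to 23.2). The differences were -12.0 points (SE 2.64; Fisher's exact test, adjusted p = 2.2e-05) and -11.6 points (SE 2.15; exact adjusted p = 3.97e-06). With overlapping sites merged the second was -6.07 points (exact adjusted p = 0.00601), and with 1 site for each region or gene the differences were -6.57 and -5.65 points (exact adjusted p = 0.00919 for both). They were -18.8 and -20.9 points on chromosomes V to IX (exact adjusted p = 0.00698 and 0.000478). Among sites at or above the median score the difference from sites inside genes was -5.06 points and did not pass (exact adjusted p = 0.0594).

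The 17 regions with more than 1 site held 18 neighbouring pairs, with spacings given between centres. In 3 of them, before BSD2, a gene of metal transporter turnover, ERV25, a COPII vesicle protein gene, and MRPL39, a mitochondrial ribosomal protein gene, the sites were 2 bp apart on opposite strands, so that the same DNA was listed in both orientations. SUI3, the eIF2 beta gene, had sites 3 bp apart on the same strand. Before DED1, a translation initiation helicase gene, sites 14 bp apart (722725 to 722740 and 722739 to 722754 on chromosome XV, scores 12.8 and 14.3) shared a strand, and both were listed in 5 rows. CDC24, the gene of a Cdc42 exchange factor, had sites 16 bp apart. Before YAT1 there were 3 sites, spaced 300 and 357 bp. Of the 13 pairs within 100 bp, 11 were listed in equal numbers of rows, and of the 5 wider pairs 1 was. The 2 close pairs with unequal rows were before AAT2 (3 and 4 rows) and SPG4 (4 and 3 rows).

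Reb1 sites were rarer near Abf1 sites between tandem genes than near those between divergent genes. A Reb1 site lay within 200 bp of 20 of 348 tandem sites (5.75%, 3.55 to 8.74) and of 42 of 340 divergent sites (12.4%, 9.05 to 16.3), a difference of -6.61 points (SE 2.18; Fisher's exact test, adjusted p = 0.00746). With 500 bp the difference was -11.1 points (exact adjusted p = 9.62e-05), and on chromosomes V to IX it was -9.31 points and did not pass (exact adjusted p = 0.25). These differences were not corrected for how many Reb1 sites each class of DNA holds. Counted by region, 26 of 2828 tandem regions (0.919%) held sites of both factors, which was 7.88% of the regions with Abf1 and 8.20% of those with Reb1. Of all tandem regions, 11.2% held a Reb1 site and 11.7% an Abf1 site, a comparison that was not tested.

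In 10 of these 26 regions an Abf1 and a Reb1 site were within 50 bp of each other, in 12 pairs. The Abf1 site was nearer to the start codon in 11 of the 12 pairs, the motifs were on the same strand in 10, and 8 were 20 to 25 bp apart. By region, Abf1 was nearer in 9 of 10, and the exception was POP2 (21 bp apart). SUI3 and RPO21 gave 2 pairs each, so the 12 pairs are not independent. Over all 42 pairs in the 26 regions, Abf1 was nearer in 23 and Reb1 in 19, and 32 pairs were on the same strand. The 42 include several pairs each before YHR218W, YLR462W and YLL066C, which lie in near-identical subtelomeric copies. In all of those pairs Reb1 was nearer and the motifs shared a strand, and they are not independent. Of the 11 Abf1 sites in the pairs within 50 bp, 9 scored below the list median, as did 127 of all 348 members (36.5%). The closest sites were before GIS1, the gene of a zinc-finger transcription factor and histone demethylase family member. There the Reb1 site lay wholly within the Abf1 site (932.5 bp from the start codon), with centres 2 bp apart. Those before VMA13, a vacuolar ATPase subunit gene, were 17 bp apart, and those before ARF2, RPO21 and SUI3 were 20 bp apart. SUI3 carried its overlapping Abf1 sites 164.5 and 161.5 bp and a Reb1 site 184.5 bp from the start codon. RPO21, the largest RNA polymerase II subunit gene, carried an Abf1 site 687.5 bp and Reb1 sites 707.5 and 722.5 bp away. The pair of ADP-ribosylation factor genes ARF1 and ARF2, which act in vesicle formation, both had an Abf1 and a Reb1 site, 38 and 20 bp apart. This grouping at 50 bp was chosen after the values were seen and was not tested.

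Genes downstream of the members were read against lists chosen with earlier results of these data known. The background was 11.7% of all genes downstream of tandem DNA, and no list was tested. Among genes of protein synthesis, 23 of 66 ribosome biogenesis genes with tandem upstream DNA had an Abf1 site there (34.8%, 23.5 to 47.6), and 12 of 66 had a Reb1 site. Their 24 sites lay 121.5 to 570.5 bp from the start codon with a median of 169 bp, against 211 bp over all members, and had a median score of 12.8. The highest-scoring were before UTP9, a subunit gene of the small-subunit processome (181.5 bp, score 14.4), RRP45, an exosome subunit gene (242.5 bp, score 14.2), LOC1, a gene of rRNA and mRNA processing (398.5 bp, score 14.0), and RIX1, a gene of 60S maturation (132.5 bp, score 14.0).

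Of 25 translation factor genes, 11 had an Abf1 site (44.0%, 24.4 to 65.1) and 11 a Reb1 site. They included GCN2, the eIF2 kinase gene (332.5 bp, score 14.7), DED1 (164.5 bp, score 14.3), TIF11, the eIF1A gene (163.5 bp, score 13.8), and HCR1, an eIF3-associated factor gene (197.5 bp, score 13.5). All 13 sites of this list were within 500 bp. TIF1 and TIF2, which encode the same eIF4A protein, both had a site, at 194.5 and 213.5 bp. Nuclear RNA polymerase genes had sites in 6 of 10 cases (60.0%, 26.2 to 87.8), against 2 of 10 for Reb1. Of these, RPB8 (157.5 bp), RPC10 (165.5 bp) and RPB3 (196.5 bp) had the site within 200 bp, and RPC31 (726.5 bp), RPO21 and RPC17 had it beyond 500 bp. Cytosolic ribosomal protein genes had 7 of 60 (11.7%, 4.82 to 22.6), at the background, among them RPS22B (732.5 bp, score 14.7), RPS28B (176.5 bp, score 13.4) and RPS21A (136.5 bp, score 12.9). The duplicated genes RPL4A and RPL4B both had a site, 177.5 and 184.5 bp from the start codon.

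**Figure D5:**
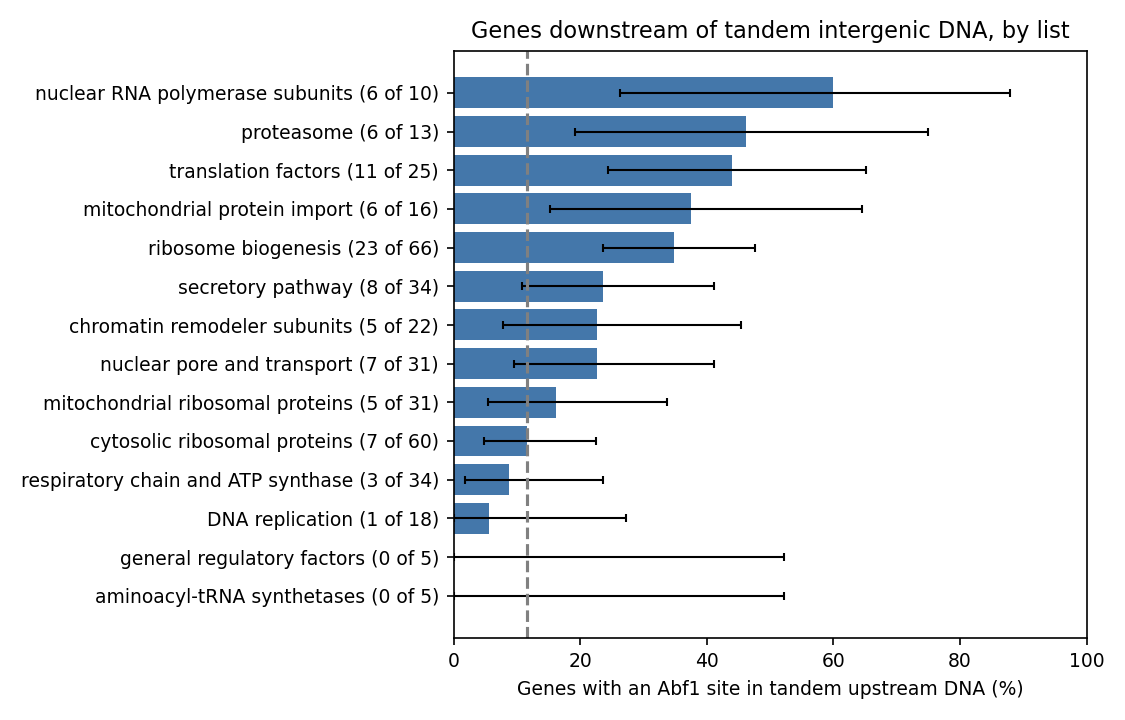
Share of genes with an Abf1 site in their tandem upstream DNA, in percent, for each gene list, with the numbers of genes in brackets. Error bars are exact 95% binomial intervals and the dashed line is the share among all 2828 genes downstream of tandem DNA, 11.7%. Ribosome biogenesis (34.8%), translation factor (44.0%), proteasome (46.2%), mitochondrial import (37.5%) and RNA polymerase genes (60.0%) have intervals above the line. The intervals are not adjusted for the number of lists, the lists were chosen with earlier results known, and no list was tested.

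Proteasome genes, which encode the main cytosolic protease, carried an Abf1 site in 6 of 13 cases (46.2%, 19.2 to 74.9), and 5 of 13 carried a Reb1 site. The sites were those of RPN1, of RPN4, the gene of a transcription activator of proteasome genes (355.5 bp, score 14.1), of the core particle genes PRE1 (782.5 bp, score 13.8), PRE10 (157.5 bp, score 12.7) and PRE8 (138.5 bp), and of the ATPase gene RPT3 (213.5 bp). Mitochondrial protein import genes had 6 of 16 (37.5%, 15.2 to 64.6), with PAM16 (135.5 bp, score 14.0), TOM6 (141.5 bp, score 13.8), PAM17 (117.5 bp, score 13.2) and MGE1 (219.5 bp, score 12.5) the highest. PAM16, PAM17 and MGE1 belong to the import motor, and TOM6, TOM7 and TOM22 to the outer membrane translocase. Mitochondrial ribosomal protein genes had 5 of 31 (16.1%, 5.45 to 33.7), all 6 sites within 148.5 bp of the start codon. They included MRP49 (109.5 bp), SWS2 (148.5 bp), MRPL39 (129.5 bp) and IMG2 (132.5 bp). Respiratory chain genes had 3 of 34 (8.82%, 1.86 to 23.7), which were QCR9, QCR8 (241.5 bp) and NDE1 (894.5 bp).

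Secretory pathway genes had sites in 8 of 34 cases (23.5%, 10.7 to 41.2), with SSO1, a plasma membrane SNARE gene (420.5 bp, score 14.8), ERV25 (194.5 bp, score 14.1), SEC21, a COPI coat gene (324.5 bp, score 13.5), and SEC53, the phosphomannomutase gene (221.5 bp, score 12.5), as the highest. Nuclear pore and transport genes had 7 of 31 (22.6%, 9.59 to 41.1), led by KAP95, the importin beta gene (314.5 bp, score 14.4), and the nucleoporin genes POM152 (147.5 bp, score 13.9) and NUP84 (163.5 bp, score 13.4). KAP123, an importin gene, had 2 sites, 253.5 and 281.5 bp away. Chromatin remodeler genes had 5 of 22 (22.7%, 7.82 to 45.4), with SWC3 of the SWR1 complex (104.5 bp), TAF14 (161.5 bp), IES2 of INO80 (68.5 bp) and RSC4 of RSC (136.5 bp) the highest-scoring. DNA replication genes had 1 of 18, ORC2. Aminoacyl-tRNA synthetase and general regulatory factor genes had 0 of 5 each, and with so few genes the exact interval for 0 of 5 reached 52.2%. In some lists more genes had a Reb1 than an Abf1 site. These were nuclear pore (9 of 31), mitochondrial ribosomal (7 of 31), respiratory chain (4 of 34), synthetase (2 of 5) and regulatory factor genes (1 of 5). Reb1 had fewer in cytosolic ribosomal (5 of 60), mitochondrial import (3 of 16), secretory (7 of 34) and chromatin remodeler genes (3 of 22). DNA replication genes had 1 of 18 for Reb1 too.

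Of 164 genes with a member whose preceding gene also had tandem DNA upstream, 22 had a member before the preceding gene too (13.4%, 8.60 to 19.6), which is near the background of 11.7%. In the run NVJ1, UTP9 and RIX1 on chromosome VIII, sites lay 181.5 bp before UTP9 and 132.5 bp before RIX1. In UPA2, NIP1 and PSE1 on chromosome XIII, they lay 200.5 bp before NIP1, an eIF3 subunit gene, and 289.5 bp before PSE1, an importin gene. In ESF2, NOG2 and POP2 on chromosome XIV, they lay 201.5 bp before NOG2, a GTPase gene of 60S assembly, and 232.5 bp before POP2, a deadenylase gene. These runs were chosen after their values were seen.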

How the data were processed

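The authors deposited a score for each site in a list of Abf1 and a list of Reb1 sites whose names mention in vitro ChIP, PWM and peaks. Bowtie, sacCer3 and R64 appear in the submitters' processing notes. No source used here gives the score's definition, motif scanner, peak caller or pooling. The labels disagree in part: 6 of 12 Abf1 pulldowns have a description that names a Reb1 coverage file, and 6 of 12 Reb1 pulldowns one that names an Abf1 file.

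The 3699 Abf1 and 2808 Reb1 rows were reduced to distinct sites, 1365 and 942, and placed by centre against the R64 table of 6431 nuclear genes (6002 protein-coding). Gene extents are coding, and strand came from systematic names. Site sequences were not used here. The 10 Fisher's exact tests were two-sided and Benjamini-Hochberg adjusted at 0.05. Sites are not replicates of an experiment, and neighbouring sites are not independent.

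The members and gene lists were chosen with earlier results of these data known. The rule for named genes took the 10 highest-scoring members (ties added), the 4 nearest (ties added) and 4 farthest, up to 6 regions with most sites, the 6 closest to a Reb1 site, and up to 4 per list by score. A gene that this rule takes is not reported here. Genes named beyond this rule, and runs and duplicated genes, were chosen after their values were seen. Placing and tests were tested on simulated data. Tests ran in scipy 1.17.1 under Python 3.11.15, with pandas 2.3.3 and numpy 2.4.6, and figures were drawn with matplotlib 3.10.9.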

Additional observations from a re-analysis of the deposited data

How the results depend on the processing

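No paired analysis was possible because the deposited lists carry no samples. Of 92 tested differences recomputed under an alternative, 71 kept direction and side of the threshold, and 29 of 34 numbers and shares without a test stayed close. The 348 members became 896 with every row counted, 221 at or above the median score and 72 on chromosomes V to IX. Their share near the start codon was 68.1% at 300 bp and 96.3% at 1000 bp.

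With every row counted, which treats repeats as separate sites, the score difference from divergent sites passed (-7.35 points), as did the difference from Reb1 in sites closer to the start codon (-4.97). With sites in 2 or more rows the former was -8.96, and with whole sites outside genes the latter was -8.67, and each passed there. Under the other alternatives neither difference passed. On chromosomes V to IX, with fewer sites, row and Reb1-neighbour differences from divergent sites were -3.34 and -9.31 and did not pass. At or above the median score the Abf1-neighbour difference from sites inside genes was -5.06 and did not pass.

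Sign changes occurred in differences that had not passed, and none passed after the change except the one at 5 rows. For the share within 200 bp of the start codon, Abf1 minus Reb1, they were -0.471 (overlapping sites merged), -2.91 (1 site per region), -3.45 (median score), -10.5 (chromosomes V to IX), -0.487 (whole sites outside genes) and -2.59 (150 bp). For motif strand they were -0.00302 (every row), -3.48 (median score), -1.86 (2 or more rows) and -0.54 (whole sites outside genes). For rows against sites inside genes they were -1.58 (median score), -3.61 (chromosomes V to IX), -3.81 (4 or more rows) and -6.26 (5 rows), the last 2 limits added after seeing the data. The cause was not tested. The lists give no depth.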

Other observations

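Members near chromosome ends included 4 before helicase-like genes of the subtelomeric Y′ elements, YLL066C (1984.5 bp from the start codon) and YLR462W (1413.5 bp), both on chromosome XII, YHR218W (1647.5 bp) on chromosome VIII and YPR202W (403.5 bp) on chromosome XVI. YHR218W scored 14.0 and the other 3 had the same score, 14.2. At YPR202W the nearest Reb1 site was 171759 bp away. At BSP1, another member toward this end of chromosome XVI, it was 112801 bp away, so the lack of Reb1 sites was not limited to YPR202W. The other 3 Y′ regions held Reb1 sites with scores of 12.6, 13.4 and 11.2 in the same order, 300, 381 and 401 bp from the Abf1 site at YLL066C, 319, 404 and 423 bp at YLR462W and 322, 406 and 426 bp at YHR218W. Y′ elements are near-identical copies, so reads from them cannot be placed with certainty, and these 4 sites are not independent.

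By chromosome, the density of members per Mb of tandem intergenic DNA ran from 109 on chromosome VI (5 sites, 95% Poisson interval 35.3 to 253) to 324 on chromosome III (15 sites, 182 to 535). On chromosome VII it was 139 (20 sites, 84.9 to 215) and on chromosome XII 284 (38 sites, 201 to 390). Chromosomes V to IX held 72 of 348 members (20.7%, 16.6 to 25.3) and 26.3% of the tandem intergenic DNA, so 276 members lay on chromosomes that the series text does not name as reconstituted.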
